A study of Mus musculus with 5 samples.

Results

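The S100 genes described here are S100a4, S100a6, S100a8, S100a9, S100a10 and S100a11, which are 6 of the 18 S100 rows and of the 52542 gene rows measured. They were taken by symbol, and all 6 had UMIs (unique molecular identifiers, each standing for 1 captured transcript). The source was brain tissue of DM-hTAU mice, a transgenic line that expresses mutant human tau, at 9 months of age and labelled as treated with aPDL1, an antibody to the immune checkpoint ligand PD-L1. They were sorted as CD45highCD11bhigh cells into 384-well plates and profiled by MARS-seq, which captures the 3′ ends of transcripts of single cells. All 5 libraries (AB5863, AB5864, AB5865, AB5867 and AB5876, replicates 1 to 5) carry the same labels, so that no treatments were compared. The study's text, however, describes a sort of cells from IgG2b-treated control mice as well. Its figure legend for the single-cell data names mice given the PD-L1 antibody only, as the labels do. Some wells may therefore hold control cells, and no label marks which. Nothing ties the libraries to separate mice. The p-values therefore measure how far differences within a library vary from library to library, and this variation may be technical. The tissue is brain in the labels, whereas the extraction protocol given with them is of other organs.

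S100 proteins are small calcium-binding proteins with EF-hand motifs that mostly act as dimers. S100a8 and S100a9 pair to form calprotectin, an abundant protein of the neutrophil cytosol that binds zinc and manganese and acts as an alarmin outside the cell. S100a10 is the partner of annexin A2, S100a11 binds annexin A1, and S100a4 and S100a6 are linked to the cytoskeleton and cell movement in many cell types. In the brain, neutrophils and monocytes come from the blood, whereas microglia and border macrophages are called resident here. The study instead reads sorted macrophages that express Lyve1, Stab1 and Mrc1, which are border macrophage markers here, as infiltrating monocyte-derived cells. No label gives the origin of a cell, and origin was not tested.

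The 6 genes lie on chromosome 3 of the mouse genome (GRCm38). S100a4 (90603771 to 90606045), S100a6 (90612882 to 90624181) and S100a8 (90668978 to 90670035) are on the plus strand and S100a9 (90692632 to 90695721) is on the minus strand, all within 91.951 kb. S100a11 (93520488 to 93526287) and S100a10 (93555080 to 93564643), both on the plus strand, follow after a gap of 2824.77 kb. The neighbours S100a8 and S100a9 are 22.596 kb apart. Because this pair carries most of the results below, the 250 bases before the transcription start that RefSeq gives (GRCm38.p6) are shown for both, 5′ to 3′, with motif matches in capitals.
S100a8, chr3:90668821-90669070, plus strand: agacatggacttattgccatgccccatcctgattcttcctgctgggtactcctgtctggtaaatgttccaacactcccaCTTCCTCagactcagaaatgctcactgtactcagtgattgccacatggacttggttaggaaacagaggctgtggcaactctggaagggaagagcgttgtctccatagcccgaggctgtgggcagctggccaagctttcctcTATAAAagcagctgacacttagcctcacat
S100a9, chr3:90695722-90695971, minus strand: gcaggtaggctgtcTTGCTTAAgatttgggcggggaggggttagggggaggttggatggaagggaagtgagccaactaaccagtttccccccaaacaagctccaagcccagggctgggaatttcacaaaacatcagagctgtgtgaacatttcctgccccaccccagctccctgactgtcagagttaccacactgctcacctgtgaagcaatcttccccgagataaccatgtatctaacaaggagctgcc
The capitals in S100a8 mark CTTCCTC, the reverse complement of the PU.1 motif GAGGAAG, and a TATA box (TATAAA) that begins 30 bases before the start. In S100a9 they mark TTGCTTAA, a match to the C/EBP motif TTGCNNAA. Another motif searched, TGANTCA for AP-1, had no match in either window. These 4 motifs, searched on both strands and without overlaps between them here, were held by 10.6% (GAGGAAG), 12.4% (TATAAA), 9.56% (TTGCNNAA) and 6.75% (TGANTCA) of the 32851 promoter windows of the same length. The matches are a description of letters only. A promoter was given for 5 of the 6 members, S100a10 being the exception.

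Of 1920 wells, 1900 held a cell and 825 of these had at least 500 UMIs and were kept, with 68 to 314 cells per library and a median of 1015 UMIs per cell over all libraries. Cells were gated by markers, none of them an S100 gene: a cell took the class for which it had at least 2 distinct markers and more than for any other class. This gave 450 microglia, 103 border macrophages, 46 monocytes, 16 dendritic cells, 45 neutrophils, 3 T or NK cells and 1 B cell, and left 161 cells ungated. The summed markers of each of the 5 compared classes stood highest in their own class. The gate uses the same lists, so this is no check of the class names. The monocyte list was at 67.1 UMIs per 10000 in monocyte-gated cells and still at 50.6 in neutrophil-gated cells. Xcr1 and Itgae were at 0 in the dendritic cell gate. Classes were unevenly spread over the libraries: 27 of the 45 neutrophil-gated cells were in AB5864, and sums of at least 5 cells existed in 5 libraries for microglia, 4 for monocytes, 3 for neutrophils, and only AB5865 and AB5876 for border macrophages and dendritic cells. All 384 cell barcodes were used in each of the 5 libraries.

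S100a8 and S100a9 made up 89.8% of the 15083 UMIs of the 6 genes over all wells and 86.1% of their 7818 UMIs in kept cells. Among the 5 compared classes, both were highest in neutrophil-gated cells. S100a6 and S100a11 were also highest there but reached monocyte-gated and dendritic cell-gated cells, whereas S100a4 and S100a10 stood highest in dendritic cell-gated cells. Levels are given as UMIs of the gene per 10000 UMIs of the same cells, a scale that suits 3′ counts because each transcript is counted once whatever its length.

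S100a8 was at 563 per 10000 in the neutrophil-gated cells of AB5864, 864 in AB5867 and 888 in AB5876 (mean 772 ± 181 SD, n = 3 libraries). In microglia-gated cells it was at 2.71, 19.3, 1.59, 14.2 and 3.40 per 10000 in AB5863, AB5864, AB5865, AB5867 and AB5876. The lowest neutrophil value lay far above the highest microglial one. S100a9 followed the same pattern, with 733, 791 and 1028 per 10000 in the neutrophil-gated cells of AB5864, AB5867 and AB5876 (851 ± 156, n = 3) and with 1.50, 28.9, 1.67, 13.1 and 3.80 in the microglia-gated cells of the 5 libraries. Monocyte-gated cells ranged from 0 to 17.3 per 10000 for S100a8 and from 0 to 34.7 for S100a9, border macrophages from 0.98 to 3.08 and from 1.77 to 4.86, and dendritic cells from 1.48 to 2.48 and from 1.48 to 3.72. These 4 classes overlapped for both genes, and neither gene passed the edgeR test described below between any pair of them.

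The neutrophil gate held cells of 2 kinds. S100a8 plus S100a9 made up between 15.5% and 31.5% (median 24.7%) of the UMIs in 30 cells and between 0.0893% and 1.85% (median 0.745%) in the other 15, with no cell in between. The gate's own markers split the same cells: they held 4.83% to 28.9% of the UMIs of the 30 cells and 0.223% to 1.50% of the UMIs of the 15. Of the 15 low cells, 13 were in AB5864, and microglia markers stood at 29.3 per 10000 in the low cells and at 14.7 in the others. Both values were below the 108 of microglia-gated cells and the 75.2 over all wells of AB5864. S100a8 plus S100a9 stood at 75.4 per 10000 (95% Poisson interval 58.4 to 95.8) in the 13 low cells of AB5864. Cells of that library outside the neutrophil gate had 53.8 (48.1 to 60.1), an overlapping interval, and its 14 other gated cells had 2326. Whether the low cells are neutrophils was not tested. The values of the gate as a whole therefore average 2 kinds of cells, and a gate that also asked for 3% of UMIs from neutrophil markers, chosen after these values were seen, is given beside them. In its 30 cells S100a8 was at 1085 per 10000 (95% exact Poisson interval 1044 to 1127, counting error only) and S100a9 at 1243 (1199 to 1288). S100a8 plus S100a9 then stood at 2326, 2446, 2710 and 2115 per 10000 in AB5864 (14 cells), AB5865 (3 cells), AB5867 (6 cells) and AB5876 (7 cells), so that the libraries lay closer together than under the wider gate.

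**Figure D1:**
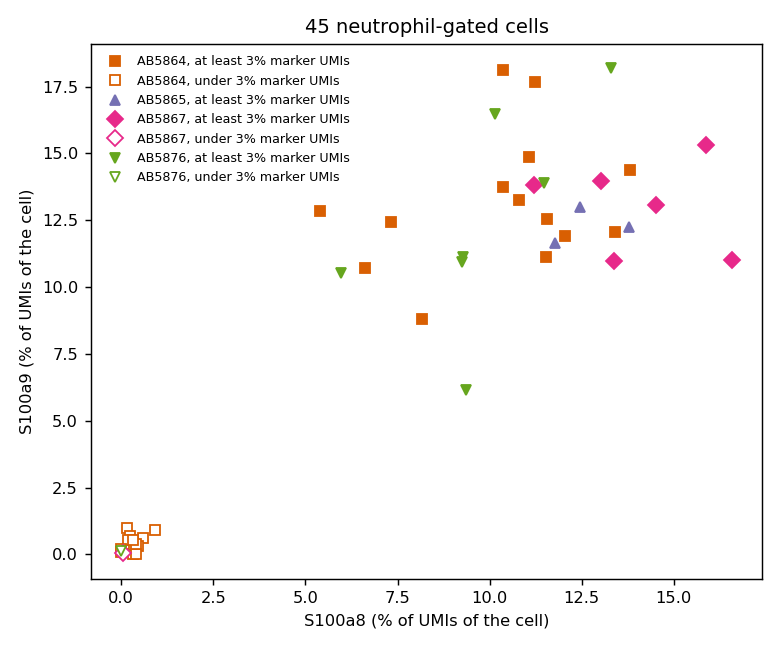
Share of UMIs from S100a8 (x axis, %) and S100a9 (y axis, %) in each of the 45 neutrophil-gated cells, by library; open symbols are cells with under 3% of UMIs from neutrophil markers. The 15 open symbols sit at the origin, and the 30 filled ones spread over 15.5% to 31.5% for the pair together.

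Within the 30 cells, S100a8 took 29.6% to 60.3% (median 46.9%) of the UMIs of the pair, so neither gene outweighed the other in all cells. The shares of S100a8 and S100a9 had a Pearson r of 0.27 across these 30 cells, against 0.90 across all 45, where the gap between both kinds of cells sets the value; the cells share libraries and depth. Neutrophils lose the transcripts of granule proteins as they mature, and Ngp, Camp and Ltf, which encode such proteins, together made up from 0% to 19.9% of the UMIs of these cells without a gap. The cells were split at 4 cutoffs of this share (1%, 2%, 5% and 10%), all chosen after the values were seen, and no test was made. Ngp, Camp and Ltf are among the 16 neutrophil markers behind the 3% marker gate. Cells low in them were therefore kept only where other neutrophil markers filled the 3%. S100a11 was at 34.3, 27.3, 22.0 and 23.2 per 10000 in the cells at or above the 4 cutoffs, and at 39.9, 58.8, 54.9 and 40.9 in the cells under them. S100a6 was at 22.6, 22.4, 17.8 and 10.3 above and at 39.9, 34.3, 36.6 and 32.5 under the cutoffs. These values are pooled over libraries, and single libraries went the other way: at 1%, S100a11 in AB5864 (49.1 above, 41.4 in the 1 cell under) and S100a6 in AB5865 (46.4 in 1 cell above, 19.9 under), and at 10% both genes in AB5867 (S100a6 30.7 in 1 cell above and 7.02 under, S100a11 46.1 and 10.5). The size of the pooled difference depended on the cutoff, and the Poisson intervals were apart only at 2% and 5% for S100a11 and only at 10% for S100a6.

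S100a6 stood at 13.9, 6.97 and 31.7 per 10000 in the neutrophil-gated cells of AB5864, AB5867 and AB5876, and at 2.32, 13.9, 15.5 and 8.26 in the monocyte-gated cells of AB5863, AB5864, AB5865 and AB5876. Dendritic cell-gated cells had 4.45 in AB5865 and 14.3 in AB5876. Microglia had 0.29 to 3.28 over 5 libraries and border macrophages 0.79 and 0.65. The 3 T or NK cells held 8 UMIs, 7 of them in 1 cell. The neutrophil, monocyte and dendritic cell values overlapped, and those neighbours in the order did not differ beyond their spread. In monocytes, 56.5% of cells had a UMI of S100a6 against 11.6% of microglia, and after thinning every cell to 500 UMIs the shares were 32.6% and 5.11%.

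S100a11 was at 28.3, 10.5 and 22.3 per 10000 in neutrophil-gated cells of the same 3 libraries and at 6.67 and 8.07 in dendritic cells. Monocyte-gated cells held 3.47, 2.73 and 2.93 per 10000 in AB5864, AB5865 and AB5876, but 30.1 in AB5863, where 13 UMIs came from 3 of 5 cells. Microglia ranged from 0 to 2.04, and border macrophages had 0.39 and 0.32. A processed pseudogene row, S100a11-ps, held 1 UMI in all wells.

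S100a4 was at 9.64 and 13.7 per 10000 in the dendritic cells of AB5865 and AB5876, and 13 of its 37 UMIs over the 16 dendritic cells came from 1 cell. Monocytes had 4.63, 15.6, 2.73 and 5.06, neutrophils 5.66, 0 and 2.35, microglia 0.90 to 2.46, and border macrophages 2.75 and 0.49. The dendritic cell values lay above every microglial one and within the range of the monocytes. The neutrophil value turned on the low cells of the gate: S100a4 was at 1.23 per 10000 (0.25 to 3.59) in the 30 cells rich in neutrophil markers and at 8.38 (4.02 to 15.4) in the other 15.

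S100a10, the annexin A2 partner, was at 4.45 and 8.07 per 10000 in the dendritic cells of AB5865 and AB5876, with 8 of 20 UMIs over the 16 cells in 1 cell. Monocytes had 6.95, 1.73, 0 and 0.53, microglia 0.52 to 2.73, and border macrophages 0.59 and 0. The 45 neutrophil-gated cells held 1 UMI. None was seen in the 30 cells rich in neutrophil markers, which allows a level of up to 1.23 per 10000 (3 counts of their 24413 UMIs).

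**Figure D2:**
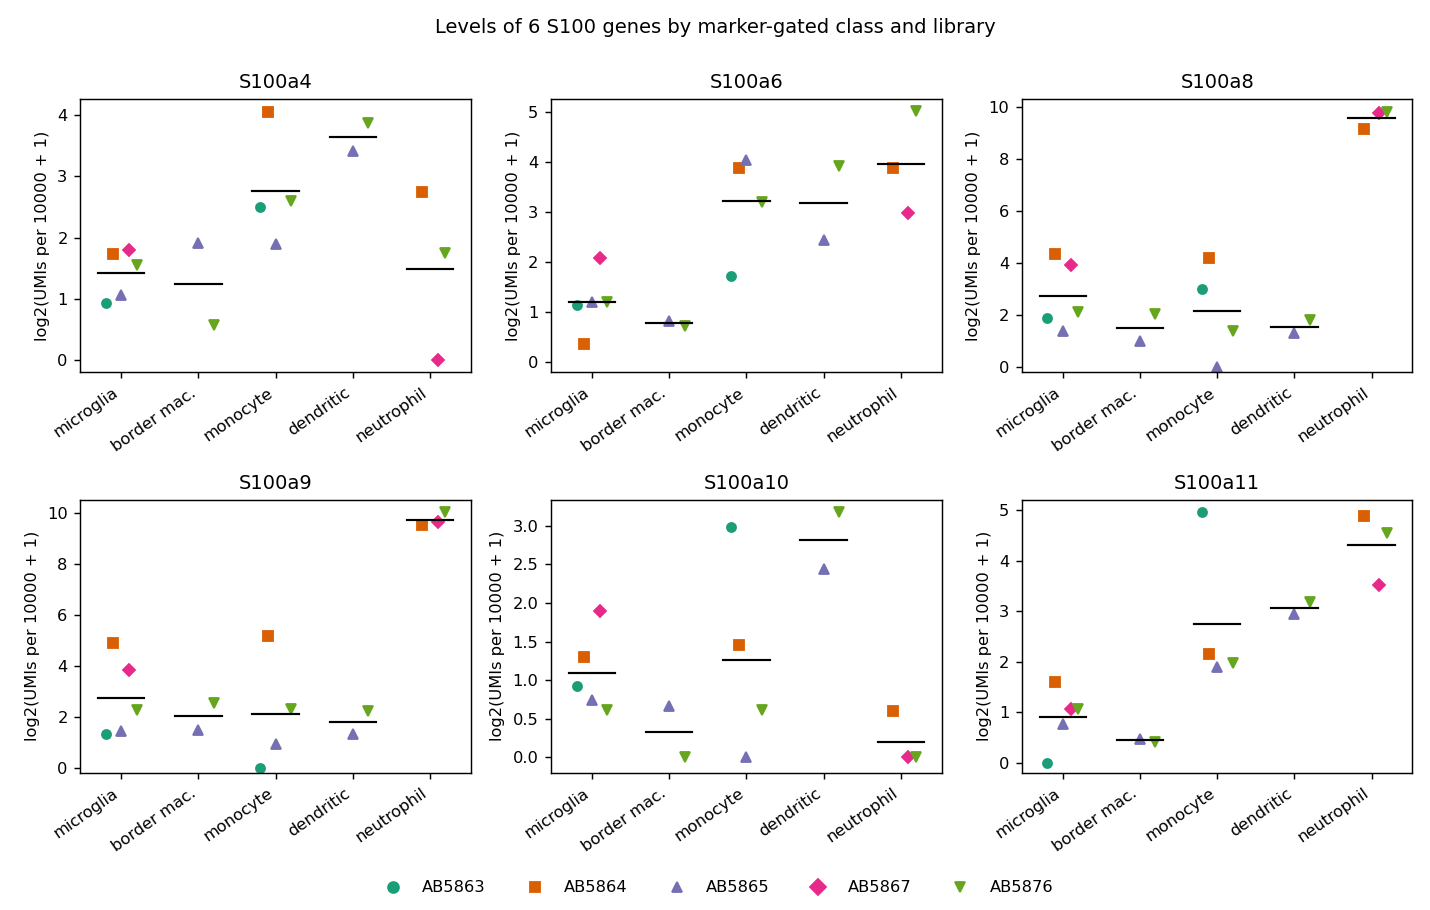
Level of each gene as log2(UMIs per 10000 + 1) (y axis, 1 panel per gene with its own scale) in the 5 gated classes (x axis); each point is 1 library with at least 5 cells of the class and the bar is the mean of the points. S100a8 and S100a9 stand apart in neutrophil-gated cells, S100a4 and S100a10 are highest in dendritic cells, and 1 monocyte point of S100a11 (AB5863) lies at 30.1 per 10000.

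The class differences were tested with edgeR's quasi-likelihood test on UMIs summed per library and class, with a library term as a block; p-values were adjusted by Benjamini-Hochberg over all 2814 genes; the 88 gate markers were not tested, and the S100 genes took no part in the gate. Because scaling is uncertain in sums that 2 genes dominate, the median log2 fold change of all genes is given beside each comparison.

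Neutrophil-gated cells had 4 of the 6 genes higher than microglia and none lower, where 1.78% of all genes were higher and 0.32% lower. The log2 fold change was 6.98 ± 0.41 (SE) for S100a8, 6.89 ± 0.41 for S100a9, 4.89 ± 0.48 for S100a11 (edgeR adjusted p = 7.21e-21) and 4.11 ± 0.48 for S100a6 (adjusted p = 6.24e-15), beside a median of -0.41 over all genes. S100a4 (0.88 ± 0.72) and S100a10 (-1.80 ± 1.50) did not pass. With the gate that asks for 3% of marker UMIs, the values were 7.81 for S100a8, 7.70 for S100a9, 5.80 for S100a11 and 4.94 for S100a6, with a median of -1.09 over all genes.

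Against monocytes, neutrophil-gated cells had 3 of the 6 genes higher (0.746% of all genes), S100a8 by 7.67 ± 0.51 on the log2 scale, S100a9 by 7.10 ± 0.49 and S100a11 by 2.63 ± 0.56 (edgeR adjusted p = 0.00143). S100a6 was at 1.28 ± 0.50 (edgeR adjusted p = 0.275) and passed with the 3% marker gate (2.22, adjusted p = 6.5e-04). That gate was chosen after the values were seen, so this second p-value is not independent of the choice. The cells it drops had S100a6 at 2.52 per 10000, against 25.4 in those it keeps. The S100a11 call was lost without AB5865 (2.54, edgeR adjusted p = 0.137) and without AB5876 (1.83, adjusted p = 0.568).

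Monocyte-gated cells had 3 of the 6 genes higher than microglia (1.14% of all genes) and none lower (2.13%). These were S100a6 (2.83 ± 0.47, edgeR adjusted p = 5.91e-07), S100a11 (2.26 ± 0.51, adjusted p = 0.00106) and S100a4 (1.69 ± 0.53, adjusted p = 0.0437), beside a median of -0.32 over all genes. S100a8 (-0.68 ± 0.49), S100a9 (-0.22 ± 0.44) and S100a10 (0.49 ± 0.89) did not pass. The S100a11 call rested on AB5863, without which it was 1.27 (edgeR adjusted p = 0.244), and S100a4 lost its call without any of AB5863, AB5864, AB5865 and AB5876. With a gate of at least 3 markers no member passed.

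Dendritic cell-gated cells had 4 of the 6 genes higher than microglia (0.675% of all genes) and none lower (2.03%): S100a10 by 3.39 ± 0.82 (edgeR adjusted p = 0.00374), S100a11 by 2.94 ± 0.58 (adjusted p = 7.87e-05), S100a4 by 2.80 ± 0.58 (adjusted p = 0.000244) and S100a6 by 2.33 ± 0.54 (adjusted p = 0.0018), beside a median of -0.59 over all genes. The same 4 genes were higher than in border macrophages (0.711% of all genes), by 4.21 ± 1.10 for S100a10, 4.02 ± 0.81 for S100a11, 3.40 ± 0.70 for S100a6 and 2.60 ± 0.69 for S100a4. These calls rest on 12 cells in 2 libraries: without AB5865 none of the 4 passed in either comparison, and without AB5876 none of the 3 that could still be tested did (S100a10 had too few UMIs), with the lone sum left assumed to vary like the other classes. With a gate of at least 3 markers none of the 4 passed against microglia. Against monocytes no member passed (edgeR, 0% of all genes higher and 0.0711% lower; 1 member at an unadjusted p under 0.05, S100a10 at 2.90 ± 0.99).

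Border macrophages and microglia, both called resident here, did not differ in any of the 6 genes by edgeR's test. Of all genes, 0.107% were higher and 0.0355% lower, and no member had an unadjusted p under 0.05. The log2 fold changes ran from -1.08 ± 0.81 for S100a11 to 0.20 ± 0.65 for S100a4.

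The other 3 pairs of classes were tested after the data were seen, for neighbours in the order of levels. Monocytes had S100a6 (3.90 ± 0.65) and S100a11 (3.35 ± 0.82) higher than border macrophages (edgeR, 0.64% of all genes higher and 1.24% lower). Neutrophils had S100a8, S100a9, S100a11 and S100a6 higher than border macrophages (0.711% higher, 0.178% lower). Against dendritic cells, neutrophils had S100a8 (8.10 ± 0.68) and S100a9 (7.88 ± 0.65) higher (1.1%) and S100a10 lower (0.142%) at -5.18 ± 1.50 (edgeR adjusted p = 0.0466). This last call rests on 1 UMI in neutrophils, so that its fold change depends on the fit, and it was lost under several alternatives (adjusted p = 0.0553 with RLE factors).

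**Figure D3:**
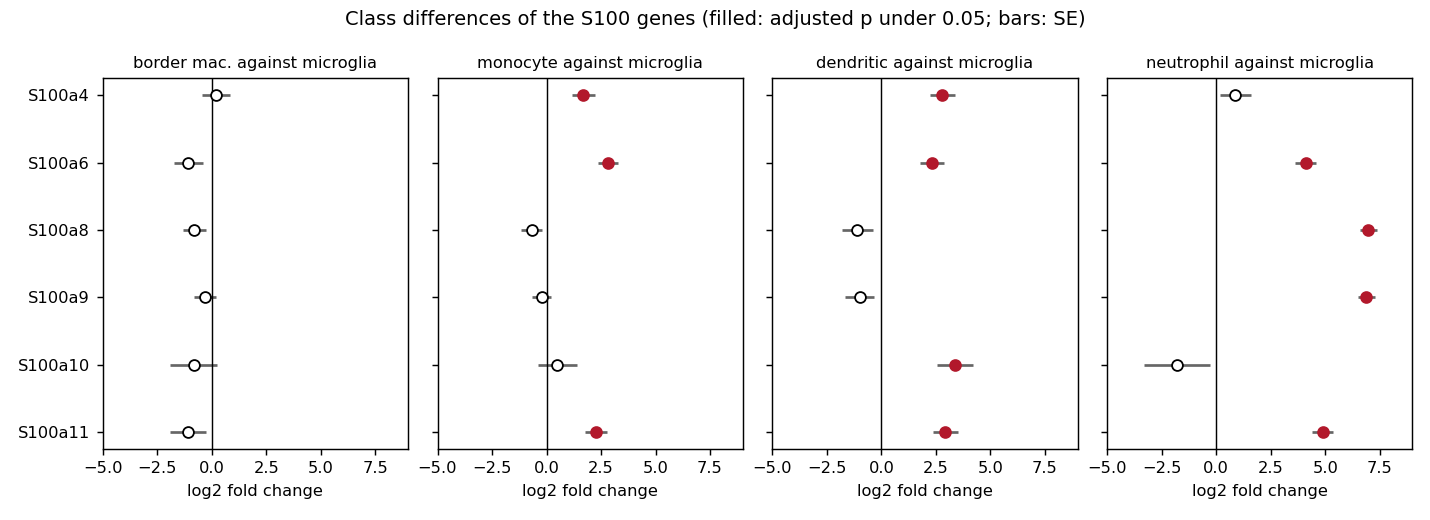
Log2 fold change of each gene (y axis) in 4 gated classes against microglia (x axis, bars are SE from edgeR; filled points have an adjusted p under 0.05). No point is filled for border macrophages, 3 are for monocytes, and 4 are for dendritic cells and for neutrophils.

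Detection of several of S100a4, S100a6, S100a10 and S100a11 in the same cell was counted only outside the neutrophil gate. There it was more common in monocytes and dendritic cells than in the resident classes. Neutrophil-gated cells were left out of the count, although 42.2% of them had S100a6 and 51.1% had S100a11 after thinning. After thinning to 500 UMIs, 26.1% of monocytes (12 of 46) and 31.2% of dendritic cells (5 of 16) held a UMI of at least 2 of the 4 genes, against 2.00% of microglia (9 of 450) and 1.94% of border macrophages (2 of 103). Among the 161 ungated cells, the 18 with more monocyte or dendritic cell than microglia or border macrophage markers had 11.8 per 10000 of S100a4 and 9.54 of S100a6. The 69 with more of the resident markers had 1.93 and 1.41. The 74 with equal numbers of both lay between, at 5.17 for each gene.

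The partners and receptors of the S100 proteins were covered by a list of 18 genes, of which 13 had enough UMIs to be tested. Anxa1, the annexin that binds S100a11, was higher in neutrophils than in microglia (5.83 ± 0.58, edgeR adjusted p = 1.36e-20) and in dendritic cells than in microglia (2.96 ± 0.87, adjusted p = 0.0314). The dendritic cell sums come from 2 libraries, and all 16 cells of that gate held 8 UMIs of Anxa1. Anxa2, the partner of S100a10, was higher than in microglia in neutrophils (3.25 ± 0.83), dendritic cells (2.97 ± 0.78) and monocytes (2.33 ± 0.72). In the whole neutrophil gate Anxa2 was thus raised where S100a10 was nearly undetected. This rests on 18 UMIs of Anxa2, and the cells rich in neutrophil markers were not examined apart for it. Ahnak, a large scaffold protein that binds the S100a10 and annexin A2 complex, was higher in monocytes than in microglia (3.18 ± 0.81, edgeR adjusted p = 0.00529). The 46 monocytes held 21 UMIs of Ahnak. None of the 13 was lower in a fixed comparison, none passed between border macrophages and microglia, and the receptor Tlr4 passed in none. Of the 10 other S100 genes listed, S100a13 (71 UMIs over all wells), S100a1 (53) and S100b (3), a gene best known from astrocytes, had any, and 7 were at 0.

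Over the 16 library and class sums, the genes most like S100a8 in log2 level were Ngp (Pearson r = 0.98), Camp, Ltf, S100a9 (0.96) and Lcn2, and those most like S100a9 were Ngp, Retnlg, Ltf, Camp and S100a8. All but the members themselves are neutrophil gate markers, so the gate shares in this order. S100a4 was nearest to Lsp1 (0.84) and Fxyd5, S100a6 to Actb (0.91) and Cnn2, and S100a11 to Gm7665 (0.93) and Cnn2. The highest value for S100a10 was 0.81, with Gm3362. The sums share libraries and differ in depth.

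S100a8 and S100a9 UMIs were also found in cells of other classes, and the amount followed the library. S100a8 plus S100a9 stood at 4.21, 48.1, 3.27, 27.3 and 7.20 per 10000 in the microglia-gated cells of AB5863, AB5864, AB5865, AB5867 and AB5876. Over all wells of the same libraries the pair was at 26.2, 459, 26.0, 240 and 41.2 per 10000. The microglial level was thus 16.1%, 10.5%, 12.5%, 11.4% and 17.5% of the library level, a narrow range beside the spread of the levels. Neutrophil-gated wells of any depth numbered 3, 118, 8, 40 and 13 in the 5 libraries, and 3, 70, 6, 24 and 7 with the 3% marker gate. With 5 libraries no correlation was computed.

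Of the 780 cells not gated as neutrophils, 51.3% had a UMI of S100a8 or S100a9: 19.1%, 96.7%, 29.1%, 79.7% and 64.1% in the 5 libraries, and 14.7%, 90.0%, 11.7%, 68.8% and 32.0% after thinning to 500 UMIs. The thinned shares ranked the libraries as the levels did, and those of AB5863 and AB5865 had overlapping intervals. Most cells held little of the pair: 7 of 780 had over 1% of their UMIs from it, 5 of them in AB5864, and the highest, an ungated cell of AB5864, had 3.79%, below the 15.5% at which the marker-rich neutrophils began. The share of S100a8 within the pair in microglia was 64.3% (95% exact interval 35.1% to 87.2%) in AB5863, 40.0% (32.5% to 47.9%) in AB5864, 48.7% (37.2% to 60.3%) in AB5865, 52.0% (41.8% to 62.1%) in AB5867 and 47.2% (40.7% to 53.8%) in AB5876, and these intervals held the share over all wells of the same library (48.4%, 43.1%, 48.7%, 48.2% and 45.9%). Neutrophil markers moved with the pair: their 16 genes together ran from 1.72 to 25.7 per 10000 in the microglia of the 5 libraries. In AB5864, the 10 non-neutrophil cells without any neutrophil marker had 45.3 per 10000 of the pair, with 16 of the 45 UMIs in 1 well. The share of S100a8 in these 10 cells was 17.8% (8.0% to 32.1%), an interval that did not hold the 43.1% of the library. After thinning to 500 UMIs, 47.8% of monocyte-gated and 31.1% of microglia-gated cells over all libraries held a UMI of the pair. In AB5876 the shares were 57.9% (95% exact interval 33.5% to 79.7%) and 30.9% (24.1% to 38.3%). Monocytes were also higher in AB5863 but lower in AB5864 (87.5% against 90.6%) and AB5865 (8.33% against 11.8%). AB5867 had only 2 monocytes. Whether the other classes express the pair was not tested, and neither was the source of the UMIs.

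**Figure D4:**
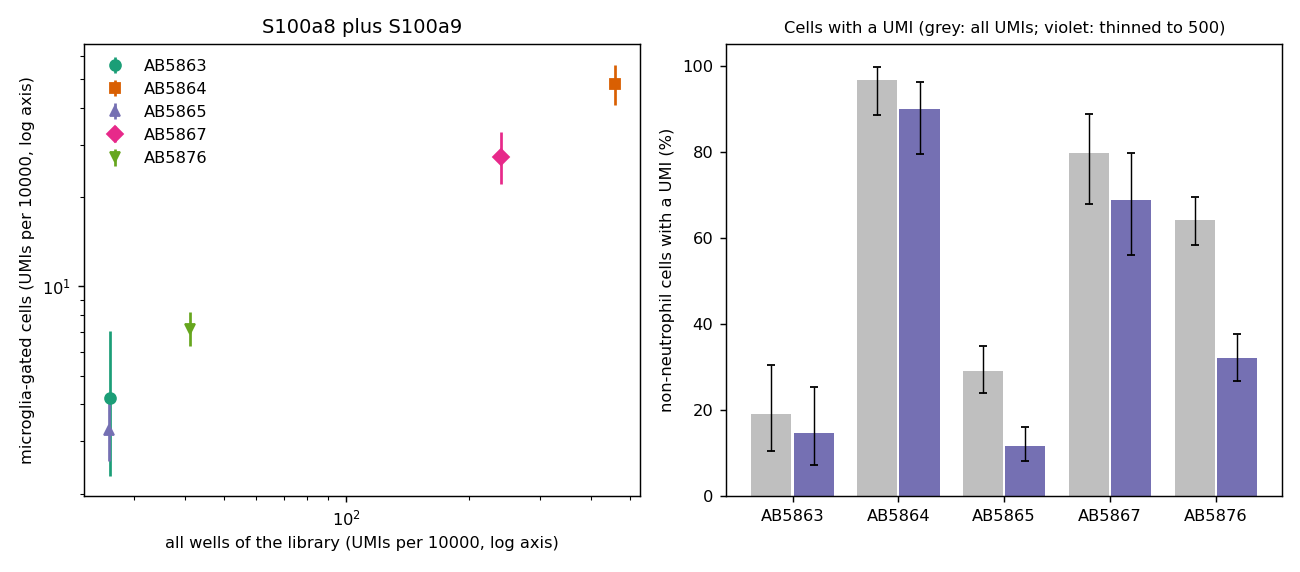
Left: S100a8 plus S100a9 in microglia-gated cells against all wells of each library (both in UMIs per 10000, log axes; bars are 95% Poisson intervals). Right: share of non-neutrophil cells with a UMI of either gene (%, bars from 0, with 95% binomial intervals), from all UMIs and after thinning to 500. AB5864 and AB5867 are highest in both panels.

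The 20 wells left without a cell held 320 UMIs in all, of which 3 were S100a8 or S100a9 (93.8 per 10000, 95% Poisson interval 19.3 to 274), in AB5863 (1) and AB5864 (2); the other 4 members had none, which allows up to 93.8 per 10000. At this depth the empty wells could not separate the libraries. Cell wells under 500 UMIs held far more: 137 of them passed the neutrophil gate, with 1509 per 10000 of the pair (1468 to 1550), and took 39.0% of all its UMIs, whereas the other 938 had 66.5 per 10000 (63.2 to 69.9). With the 3% marker gate, 80 shallow wells had 2266 per 10000, close to the 2327 in the kept cells of that gate. Their S100a6 and S100a11 could be read as well in the 137 wells, at 31.7 and 40.3 per 10000.

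Plate position and barcode were compared within each library. Non-neutrophil cells next to a neutrophil-gated well had more of the pair than other cells in 1 of 5 libraries (exact sign-flip permutation test over libraries, two-sided p = 0.188), and in 1 of 5 with the 3% marker gate (exact p = 0.312). Over pooled libraries the cells next to such a well were higher (17.4 against 6.15 per 10000). Within libraries only AB5864 had this direction (54.3 against 40.8). There 57 of the 60 non-neutrophil cells lay next to such a well, and the other 3 held 9 UMIs of the pair. In AB5863 only 5 cells, with 1 UMI of the pair, lay next to one, so some of these comparisons rest on few counts. Cells whose barcode was that of a neutrophil-gated well in another library had more of the pair in 5 of 5 libraries under both gates (exact two-sided permutation p = 0.0625 each, the smallest that 5 libraries allow, so that this design cannot pass 0.05). The mean log2 ratio was 0.43 ± 0.33 (SD, n = 5) with the gate of 2 markers and 0.25 ± 0.25 with the 3% marker gate, small beside the differences between libraries. Over pooled libraries the direction was the reverse, at 7.87 per 10000 with such a barcode against 9.67 without (8.13 against 9.21 with the 3% marker gate). With the 3% marker gate, AB5864 had 54.5 in only 6 such cells against 53.7 in the others.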

How the data were processed

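For 5 MARS-seq libraries, the authors deposited un-normalized UMI counts of each gene in each well. The submitters' processing notes name mm10 as genome build and bcl2fastq 2.15.0.4; no aligner is named there or in the paper's methods. The study clustered its cells with MetaCell, which was not used here. Wells labelled as holding 1 cell with at least 500 UMIs outside the ERCC spike-ins were kept, with no upper limit; doublets were excluded in the authors' sort and no caller was run. Library totals ran from 128201 to 549824 UMIs. The members, marker lists and gene lists were chosen with earlier results of these data known.

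Counts of the cells of each library and class were summed (at least 5 cells, 16 sums) and were tested in R 4.3.3 with edgeR 4.0.16 (glmQLFit, robust), class and library as terms, and genes with at least 50 UMIs, Benjamini-Hochberg adjusted at 0.05. TMM factors were taken from genes with at least 200 UMIs, a change to the plan made after a simulation without differences gave factors far from 1 in small sums; factors from all genes tested are an alternative. The method was checked on simulated counts. DESeq2 1.42.0 was an alternative. The gate was tried with at least 1, 2 (as reported) and 3 markers and, added after the values were seen, with 3% of UMIs from the 16 neutrophil markers. Also added after seeing the data were 3 further class pairs, the gate of 1 marker, leaving out the cell with the most UMIs, the granule gene cutoffs, and the position and barcode comparisons. Intervals are exact (95%) and cover counting error only. Named genes were the 6 members, the 10 other S100 genes and 18 partners by counts, and the 5 most alike genes per member.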

Additional observations from a re-analysis of the deposited data

Results flagged for a closer look

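Of 20 groups of 4 or 5 libraries examined for a library far from the others, 2 had one, where chance gives about 1 in 20. S100a11 was at 30.1 per 10000 in the monocyte-gated cells of AB5863, far above the other 3 libraries; it came from 13 UMIs in 3 of 5 cells. S100a9 was at 34.7 per 10000 in the monocyte-gated cells of AB5864, the library in which the pair was also highest over all wells. In wells under 500 UMIs, which entered the comparisons between classes only from 300 UMIs and only in an alternative, those gated as neutrophils held S100a8 plus S100a9 at 1509 per 10000, above the upper bound of 274 in the wells without a cell. The gate picked these wells by their neutrophil markers, so a level above that of empty wells adds nothing beyond the gate.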

How the results depend on the processing

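Neutrophil-gated cells kept 4 members higher than microglia in every alternative that could be fitted; a minimum of 1000 UMIs left no neutrophil sums, so that it gave no value. Border macrophages against microglia, and dendritic cells against monocytes, had 0 members higher throughout, with 0 to 0 on leaving out each library. Monocytes against microglia had 3 members higher, but 0 with a gate of at least 3 markers, 1 with a minimum of 1000 UMIs, and 1 to 3 on leaving out each library. Dendritic cells had 4 members higher than microglia, but 0 with the gate of 3 markers and 0 to 4 on leaving out each library; against border macrophages they had 4, but 2 with DESeq2 (which gave S100a10 no adjusted p), 2 without a filter on low counts, and 0 to 4 on leaving out each library. Neutrophils had 3 members higher than monocytes, and 2 to 4 on leaving out each library. Dendritic cells and border macrophages had sums in AB5865 and AB5876 only; the cause of the other losses was not tested.

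Of all genes, those higher in neutrophils than in microglia numbered 50, but 99 with the 3% marker gate 12 with TMM factors from all genes tested, 18 without AB5865 and 8 without AB5876 (fewer genes tested in both), and the median log2 fold change of all genes, -0.41, was -0.97 with those factors and -0.12 with DESeq2. The 18 member differences past the threshold had 269 of 314 alternative values past it in the same direction, 45 lost it and none reversed. Without the library (replicate) block S100a10 in dendritic cells against microglia fell to 2.34 and lost its call (edgeR adjusted p = 0.099); the labels put all libraries in one group, so that the block pairs classes of the same plate.

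The level of S100a8 plus S100a9 in neutrophil-gated cells, 1623 per 10000 as the mean over libraries, was 2384 with the 3% marker gate and 1948 with totals that leave out both genes, and 1476 to 1786 on leaving out each library. Their level in non-neutrophil cells, 19.2, ran from 10.5 to 23.2 on leaving out each library, the lowest being without AB5864. Only differences that had not passed changed sign. In border macrophages against microglia, S100a4 was -1.68 with 3 markers, -0.0443 with 1000 UMIs, -0.0443 without the block and -1.66 to 1.51 on leaving out each library, over which S100a9 ran from -0.53 to 0.18. In monocytes against microglia, leaving out each library gave -1.30 to 0.0458 for S100a8, -0.81 to 0.13 for S100a9 and -0.41 to 0.99 for S100a10, and with 1000 UMIs S100a9 was 0.12 and S100a10 -0.13. In dendritic cells against monocytes, S100a6 was 0.35 and S100a8 0.73 with 3 markers, 0.0465 and 0.70 with 1000 UMIs, S100a11 was -0.0145 without the block, and leaving out each library gave -1.88 to 0.16 for S100a6 and -1.14 to 0.23 for S100a8. In dendritic cells against border macrophages, S100a8 was 0.28 with 1000 UMIs and -0.66 to 0.17 on leaving out each library.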
